A study of Mus musculus with 12 samples.

Results

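The left ventricle of mice labelled with the genotype Alox5ko and the treatment NS was compared with that of mice labelled WT and NS, that is, the knockout against the wild type without TAC. Every gene with 10 or more counts in at least 3 of the 6 libraries was a member, which gave 15211 genes of the 49492 listed and of the 26105 with a count in any of the 6. The labels give tissue, genotype and treatment only. They do not spell out NS or TAC, name no strain, sex or age, and are silent on whether separate animals gave the libraries, so the p-values below measure the spread between 3 libraries a group, which may be technical. The design text speaks of a mouse deficient in Alox5 in the heart, while the sample labels give the genotype alone. Which promoter or Cre line, if any, limits the deletion is not given in the sources used here. The series also holds 3 libraries labelled Alox5ko_TAC and 3 labelled WT_TAC, which are used here as a second comparison of the genotypes that shares no library with the first. Its title names Runx2, a transcription factor of bone formation, and the reversal of pathological ventricular remodelling.

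Alox5 encodes arachidonate 5-lipoxygenase, the enzyme that oxygenates arachidonic acid on the way to the leukotrienes, lipid mediators of inflammation made mostly by myeloid cells. Its membrane partner Alox5ap presents the substrate, Lta4h and Ltc4s form the individual leukotrienes, and G protein-coupled receptors read them on leukocytes, endothelium and smooth muscle. In the ventricle, muscle cells contribute most of the messenger RNA, and fibroblasts, endothelium and mural cells supply the matrix of collagens, laminins and fibronectin that holds the muscle together. In bulk tissue, fewer cells of a type and less RNA per cell cannot be told apart, and that holds for every gene below.

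The Alox5ko_NS libraries held 27213084, 27311196 and 23792567 counts, against 21328937, 22372490 and 22039918 in the WT_NS libraries, so the knockout was sequenced more deeply with no overlap. Levels are given as CPM, a gene's share of its library's counts on a fixed scale, adjusted between libraries by the trimmed mean of M-values, and fold changes as log2 of knockout over wild type with 1 standard error (SE). Of the members, 14058 had 10 or more counts in all 6 libraries, 35 passed through the Alox5ko_NS libraries alone and 10 through the WT_NS libraries alone. At the edge of the rule, the third-highest count was exactly 10 in 195 genes and 9 in 215. Fbxo5, just inside, had 8, 12 and 6 counts in Alox5ko_NS and 15, 10 and 10 in WT_NS, while Mthfd1l, just outside, had 6, 5 and 3 in Alox5ko_NS and 10, 9 and 9 in WT_NS. The third Alox5ko_NS library stood apart: it lay at -32.7 on the first principal component, against -5.71 to 12.6 for the other 5, and 21.4% of its counts came from the mitochondrial chromosome, against 16.5 to 18.7%. Markers of heart muscle were abundant in all 6 libraries and the lung marker Sftpc had 0 counts in each. The atrial myosin gene Myl4 had 36, 40 and 654 counts in the Alox5ko_NS libraries, against 1324, 331 and 530 in the WT_NS libraries, and Myl7 had 0, 7 and 107 against 264, 52 and 105. Atrial transcripts were thus present in unequal amounts, and their part in the results below was not tested.

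The comparison was quiet outside a handful of genes. With edgeR's quasi-likelihood test on all 12 libraries and Benjamini-Hochberg adjustment over the 15211 genes, 6 genes (0.0394%) had an adjusted p under 0.05. Nnt and Ide were higher in the knockout (0.0131% of genes) and Alox5, Itpr1, Ret and Wnt5b were lower (0.0263%). In all 6 the Alox5ko_NS and WT_NS libraries did not overlap, as was true of 2076 genes in all (13.6%). The median log2 fold change over all genes was 0.00, and 964 genes (6.34%) had an unadjusted p under 0.05. The same test fitted to the 6 NS libraries alone called 18 genes (0.118%), 2 higher and 16 lower, and left out Itpr1. When each of the 12 libraries was left out in turn, Alox5 and Nnt were called every time, and the number of called genes lay between 2 and 7. It was 2 without the first Alox5ko_NS library or the second WT_NS library, and 3 without the third Alox5ko_NS library or the first Alox5ko_TAC library.

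**Figure D1:**
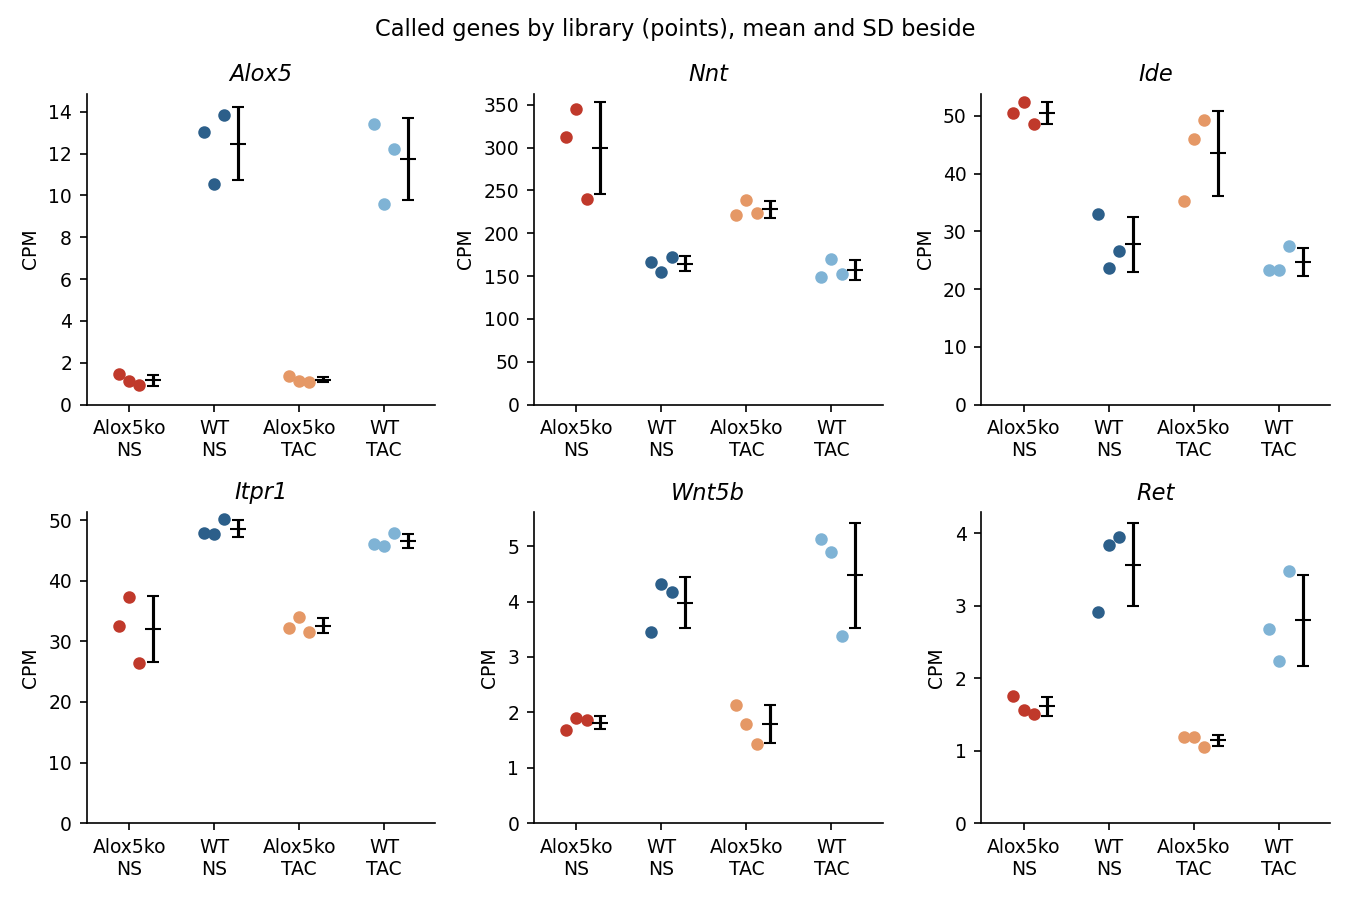
CPM of the 6 called genes in each library (points), with the mean and 1 SD beside them, for Alox5ko and WT without TAC and then under TAC. In the panel of each gene the 3 Alox5ko_NS points lie on 1 side of the 3 WT_NS points; for Nnt they are 239.7 to 345 CPM against 155 to 172.

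Alox5 itself had 1.46, 1.12 and 0.933 CPM in the Alox5ko_NS libraries, against 13.0, 10.5 and 13.9 CPM in the WT_NS libraries. Every knockout library lay far below every wild-type library. The underlying counts were 39, 30 and 21 in the Alox5ko_NS libraries and 287, 244 and 309 in the WT_NS libraries, so the transcript was low but counted in each knockout library. Mean levels were 1.17 ± 0.266 CPM in Alox5ko_NS against 12.5 ± 1.73 CPM in WT_NS (SD, n = 3 each). Alox5 fell by 3.40 on the log2 scale (SE 0.185, adjusted p = 2.01e-09, edgeR). Under TAC, the log2 fold change was -3.28. The gene (ENSMUSG00000025701.12) runs from 116410077 to 116461178 on the minus strand of chromosome 6 in the GRCm38 annotation, whose positions equal those in the deposited table. The 250 bases before its RefSeq start (GRCm38.p6, chr6:116461179-116461428, minus strand) are shown because this is the locus that the genotype targets. Capitals mark a GC box, GGGCGG, the element that Sp1 binds in the human ALOX5 promoter. Searched on both strands, GGGCGG was present in 10756 of 32851 mouse promoters of this length (32.7%).
Alox5: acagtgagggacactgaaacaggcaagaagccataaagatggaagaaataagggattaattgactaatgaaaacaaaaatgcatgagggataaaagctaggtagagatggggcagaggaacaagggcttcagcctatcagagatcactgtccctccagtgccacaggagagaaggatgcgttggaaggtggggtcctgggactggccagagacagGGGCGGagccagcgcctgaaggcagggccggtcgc

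The rest of the leukotriene pathway gave no call. Of 27 genes listed for leukotriene and lipoxygenase metabolism, 13 passed the filter, and Alox5 was the 1 called. Alox5ap had 4.04, 3.32 and 4.40 CPM in Alox5ko_NS against 4.27, 5.10 and 4.08 CPM in WT_NS. These ranges overlapped, and the log2 fold change was -0.20. Lta4h, the hydrolase that makes leukotriene B4, had a log2 fold change of -0.07, and Mgst3, a microsomal glutathione transferase, one of 0.13. Prostanoid and phospholipase genes, which draw on the same arachidonic acid, numbered 27 tested with 9 above 0 and 18 below, none called. Every Alox5ko_NS library was above every WT_NS library in 5 of the 27 (18.5%, against 6.19% of all genes). Every one was below in 2 (7.41%, against 7.46%). Ptgds, the prostaglandin D2 synthase, had 125, 101 and 136 CPM in Alox5ko_NS against 84.1, 79.3 and 65.2 CPM in WT_NS. Its groups did not overlap, with a log2 fold change of 0.66 (SE 0.159) and an adjusted p of 0.436. Il1b, an inflammatory cytokine of myeloid cells, had 0.262, 0.224 and 0.533 CPM in Alox5ko_NS against 1.27, 1.17 and 0.628 CPM in WT_NS. That is a log2 fold change of -1.61 (adjusted p = 0.432, edgeR) at a level near the filter.

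Itpr1, Ret and Wnt5b, the other 3 genes that fell, lie on chromosome 6 with Alox5. Itpr1 encodes the type 1 inositol trisphosphate receptor, a calcium release channel of the endoplasmic reticulum. It had 32.5, 37.3 and 26.5 CPM in the Alox5ko_NS libraries and 47.8, 47.7 and 50.2 CPM in the WT_NS libraries. All 3 knockout libraries were lower, the third most of all. The log2 fold change was -0.60 (SE 0.0984, adjusted p = 0.0300, edgeR), and in the 6-library fit the adjusted p was 0.0695. Without single NS libraries the adjusted p of Itpr1 was above 0.05 in every case but that of the second Alox5ko_NS library, and the fold change was -0.48 without the third Alox5ko_NS library. Gm44040, an antisense transcript inside Itpr1, had 0.971, 1.34 and 1.24 CPM in Alox5ko_NS against 2.68, 2.63 and 2.82 CPM in WT_NS. It was called in the 6-library fit (adjusted p = 0.0474) and not over 12 libraries (adjusted p = 0.132), with a log2 fold change of -1.19. The library protocol keeps strand, but the setting used in counting is not given in the sources used here, so reads of Itpr1 and of Gm44040 cannot be told apart.

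Ret, the receptor tyrosine kinase for ligands of the glial cell line-derived neurotrophic factor family, had 1.76, 1.56 and 1.51 CPM in the Alox5ko_NS libraries and 2.91, 3.84 and 3.95 CPM in the WT_NS libraries. The 3 knockout values lay close together and below all wild-type values. Ret fell by 1.14 on the log2 scale (SE 0.202, adjusted p = 0.0471, edgeR). Wnt5b, a ligand of non-canonical Wnt signalling, had 1.68, 1.90 and 1.87 CPM in Alox5ko_NS against 3.45, 4.32 and 4.17 CPM in WT_NS. It too was low in every knockout library. Its fall was 1.13 on the log2 scale (SE 0.198, adjusted p = 0.0471, edgeR). Fbxl14, which encodes an F-box protein and lies inside the span of Wnt5b on the opposite strand, had a log2 fold change of 0.58 and was not called. Ret and Wnt5b are weakly expressed. The adjusted p of Wnt5b was above 0.05 without any 1 of the 6 NS libraries (0.0596 to 0.357), and that of Ret without any 1 of them other than the first WT_NS library (0.153 to 0.323).

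The same 3 genes were low in the knockout under TAC, in libraries that the comparison without TAC does not contain. Wnt5b had 2.12, 1.78 and 1.44 CPM in Alox5ko_TAC and 5.13, 4.89 and 3.39 CPM in WT_TAC, a fall of 1.32 on the log2 scale (adjusted p = 0.00771, edgeR). Ret had 1.19, 1.19 and 1.05 CPM in Alox5ko_TAC and 2.68, 2.23 and 3.48 CPM in WT_TAC, a fall of 1.28 (adjusted p = 0.0280, edgeR). Itpr1 had 32.2, 34.0 and 31.6 CPM in Alox5ko_TAC and 46.0, 45.8 and 48.0 CPM in WT_TAC, and its adjusted p of 0.0621 missed the threshold (log2 fold change -0.52). Among the same 15211 genes, 10 were called under TAC (0.0657%, and 0.197% in a fit to the 6 TAC libraries), and Alox5, Ide, Ret and Wnt5b were the 4 called in both comparisons with the same sign. The 2 comparisons share the fitted spread of each gene but no library.

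Called genes were not spread evenly over the genome. Measured between the lower coordinates of the genes in GRCm38, Itpr1 lies at -8197 kb from Alox5, Ret at 1742 kb and Wnt5b at 3022 kb. Within 10 Mb of Alox5, 169 genes were tested and 4 were called (2.37%). Alox5 itself, the targeted gene, is among the 169 and the 4, and in each later count of them. Elsewhere 2 of the 15042 genes were called (0.0133%), and 0 of the other 620 genes of chromosome 6. At an unadjusted p under 0.05, the counts were 28 of 169 (16.6%) near Alox5 and 936 of 15042 elsewhere (6.22%). The libraries of the genotypes did not overlap for 35 of the 169 (20.7%) and for 2041 of the 15042 (13.6%). Of the 28, 13 also had an unadjusted p under 0.05 under TAC with the same sign, as did 124 of the 936 elsewhere. In the 6-library fit, 4 of the 169 were called and 14 of the 15042, 2 of them among the other 620 genes of chromosome 6. These genes lay on both sides of 0. Fam21, which belongs to the WASH complex of endosomes, had 36.1, 43.0 and 37.2 CPM in Alox5ko_NS against 33.4, 29.6 and 30.1 CPM in WT_NS, a log2 fold change of 0.32 without TAC and of 0.37 under TAC. Atp6v1e1, a subunit of the vacuolar proton pump, had 169.9, 177 and 204 CPM in Alox5ko_NS against 155, 156 and 147 CPM in WT_NS, with fold changes of 0.27 and 0.31. Apobec1, the cytidine deaminase that edits Apob messenger RNA, had 1.35, 1.42 and 1.38 CPM in Alox5ko_NS against 2.63, 1.99 and 1.88 CPM in WT_NS, with fold changes of -0.65 and -1.03. Fam21, Atp6v1e1 and Apobec1 were chosen after their values were seen, and none of the 3 was called.

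**Figure D2:**
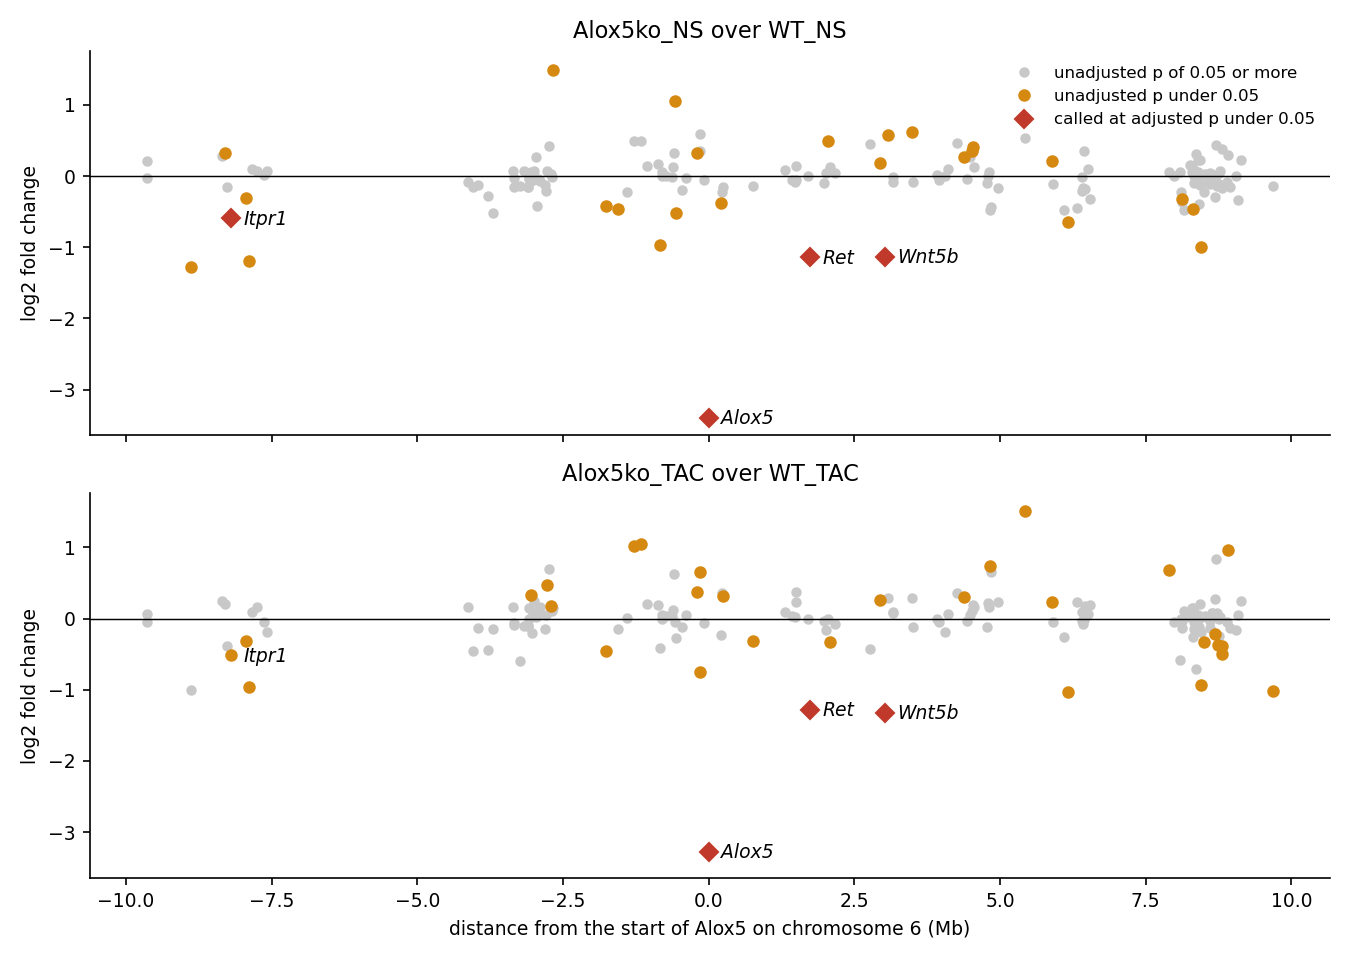
Log2 fold change of the genes tested within 10 Mb of Alox5 by distance from Alox5, without TAC (above) and under TAC (below). Diamonds mark called genes: Itpr1, Alox5, Ret and Wnt5b without TAC; the other genes scatter to both sides of 0.

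Nnt and Ide, the 2 genes that rose, lie on other chromosomes. Nnt encodes the nicotinamide nucleotide transhydrogenase of the inner mitochondrial membrane, which makes NADPH from NADH; C57BL/6J mice are known to carry a deletion in this gene. Its levels were 313, 345 and 239.7 CPM in the Alox5ko_NS libraries and 166, 155 and 172 CPM in the WT_NS libraries. The third knockout library was the lowest of its group and still above every wild-type library. Nnt rose by 0.86 on the log2 scale (SE 0.104, adjusted p = 0.000803, edgeR). Under TAC it had 221, 239 and 223 CPM in Alox5ko_TAC and 149, 171 and 152 CPM in WT_TAC, a log2 fold change of 0.54 with an adjusted p of 0.0656. The difference between these effects was 0.33, with an unadjusted p of 0.0378 and an adjusted p of 0.887. Of the 12 genes tested within 1 Mb of Nnt, 2 had an unadjusted p under 0.05 (6.34% of all genes did), and neither had one under TAC with the same sign. The strain of these mice is not given in the labels, and the part of strain background in the results was not tested.

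Ide encodes insulin-degrading enzyme, a zinc protease that cleaves insulin and other small peptides. It had 50.4, 52.4 and 48.7 CPM in the Alox5ko_NS libraries and 33.0, 23.7 and 26.5 CPM in the WT_NS libraries. Every knockout library was above every wild-type one, and the first wild-type library was the nearest. Ide rose by 0.86 on the log2 scale (SE 0.127, adjusted p = 0.0131, edgeR) and by 0.81 under TAC (adjusted p = 0.0138). Among fits that left out 1 NS library, the call was kept without the first WT_NS library (log2 fold change 1.01) and lost without any of the other 5 (0.76 to 0.89, adjusted p 0.0621 to 0.0929). Its neighbour Btaf1, a TATA-binding protein-associated ATPase, had 26.0, 21.2 and 22.2 CPM in Alox5ko_NS against 16.1, 10.6 and 9.51 CPM in WT_NS. The log2 fold change of Btaf1 was 0.94 without TAC and 1.21 under TAC, with adjusted p-values of 0.478 and 0.156. Fgfbp3, a fibroblast growth factor-binding protein next to Btaf1, had 1.38, 1.75 and 1.91 CPM in Alox5ko_NS against 1.36, 0.432 and 0.404 CPM in WT_NS. Its fold changes of 1.20 and 1.05 were not called. Of 18 genes tested within 1 Mb of Ide on chromosome 19, 4 had an unadjusted p under 0.05 (6.34% of all genes did), and Btaf1 and Fgfbp3 were the 2 that also had one under TAC with the same sign. They were chosen after their values were seen.

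**Figure D3:**
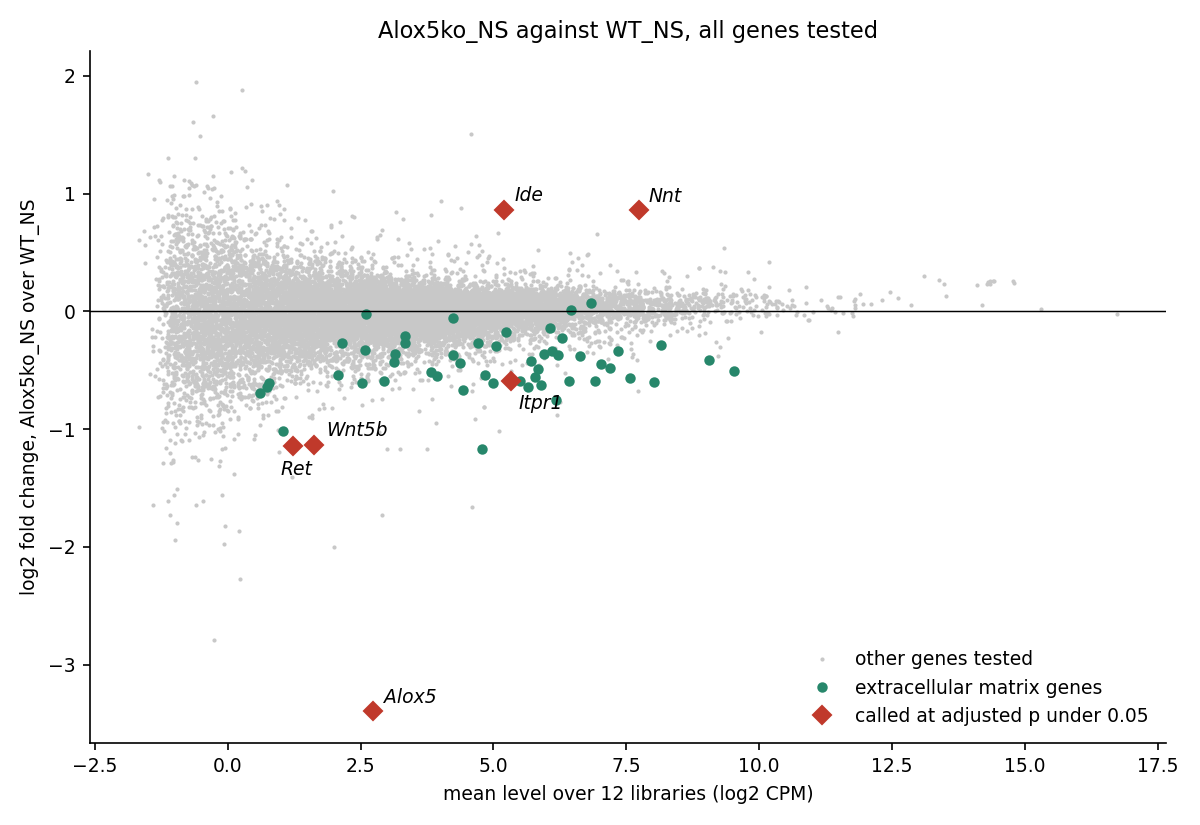
Log2 fold change of Alox5ko_NS over WT_NS against mean level (log2 CPM over 12 libraries) for the 15211 genes tested. Red diamonds are the 6 called genes, and green points are the 52 extracellular matrix genes, of which 50 lie below 0.

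Extracellular matrix genes were lower in the knockout almost without exception, by small steps that no single gene carried past the test over 12 libraries. Of 53 listed, 52 were tested, 50 had a fold change below 0 (96.2%, against 49.7% of all genes) and the median was -0.47. In 35 of the 52 (67.3%), every Alox5ko_NS library was below every WT_NS library, against 1134 of 15211 genes (7.46%). At an unadjusted p under 0.05, 19 were lower and 0 higher, against 3.85% and 2.49% of all genes. None was called over 12 libraries, whereas 8 were called in the fit to the 6 NS libraries, where 0.105% of all genes were called lower. That number was 0 without the first Alox5ko_NS library or the first or second WT_NS library, 4 without the second Alox5ko_NS or the third WT_NS library, and 11 without the third Alox5ko_NS library. The summed level of the list was 3305, 3246 and 2668 CPM in the Alox5ko_NS libraries and 4428, 4558 and 4154 CPM in the WT_NS libraries. All 3 knockout sums lay below the wild-type sums, the third furthest. Without the third knockout library, all 52 genes were below 0 and the median was -0.42.

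The fibrillar collagens, which give the ventricle its tensile strength, were among the 8. Col1a1 had 50.9, 46.2 and 39.0 CPM in Alox5ko_NS against 84.1, 80.4 and 64.3 CPM in WT_NS. The groups were well apart, with a log2 fold change of -0.75. Its SE was 0.255 in the 12-library fit (adjusted p = 0.691) and 0.115 in the 6-library fit (adjusted p = 0.0336). The TAC libraries spread more widely, at 72.7, 50.8 and 77.4 CPM in Alox5ko_TAC and 141, 75.0 and 86.1 CPM in WT_TAC. Col1a2, the partner chain of type I collagen, had 64.0, 54.8 and 48.4 CPM in Alox5ko_NS against 88.6, 84.3 and 78.8 CPM in WT_NS, a log2 fold change of -0.59 (6-library adjusted p = 0.0474). Col3a1, the chain of type III collagen, had 154, 149 and 126 CPM in Alox5ko_NS against 216, 217 and 202 CPM in WT_NS, a log2 fold change of -0.56 (6-library adjusted p = 0.0336). In both the groups did not overlap. Col5a2, which helps type I fibrils assemble, had 35.7, 29.8 and 28.9 CPM in Alox5ko_NS against 51.9, 51.9 and 43.2 CPM in WT_NS, a log2 fold change of -0.64.

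Basement membrane chains, which surround myocytes and capillaries, were also below 0. Col4a1 had 589, 605 and 492 CPM in Alox5ko_NS against 785, 847 and 769 CPM in WT_NS. Its log2 fold change was -0.51 (6-library adjusted p = 0.0474) and -0.07 under TAC. Col15a1, a collagen of the zone next to the basement membrane, had 102, 101 and 76.8 CPM in Alox5ko_NS against 140.5, 137 and 144 CPM in WT_NS (log2 fold change -0.59). Lamb1, a laminin chain, had 84.6, 86.2 and 70.2 CPM in Alox5ko_NS against 110.1, 99.7 and 104 CPM in WT_NS. Its log2 fold change of -0.38 was not called in either fit. Over the families, all 18 collagen chains tested were below 0 and apart, from -1.01 in Col12a1 to -0.37 in Col14a1, with a median of -0.55. The 4 laminin and nidogen chains were below 0 with a median of -0.33, and 3 were apart. Of 5 metalloproteinases and inhibitors, 4 were below 0 and 2 apart and lower, with a median of -0.43. Of 25 other matrix genes, 24 were below 0 and 12 apart. Among all genes tested, 7.46% were apart and lower.

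Sparc, a matricellular protein that binds collagen, had 184, 179 and 207 CPM in Alox5ko_NS against 285, 311 and 266 CPM in WT_NS. The gap between the groups was wide, with a log2 fold change of -0.60 (6-library adjusted p = 0.0226). Mmp2, a gelatinase that cleaves matrix, had 22.7, 19 and 20.9 CPM in Alox5ko_NS against 32.7, 32.7 and 30.1 CPM in WT_NS (log2 fold change -0.61, 6-library adjusted p = 0.0336). Thbs1, a thrombospondin that regulates angiogenesis, had 19.1, 18.0 and 20.8 CPM in Alox5ko_NS against 50.3, 51.7 and 27.9 CPM in WT_NS. Its log2 fold change of -1.17 was the lowest of the list, and it was not called in either fit. Of the inhibitors and small proteoglycans, Timp3 had a fold change of 0.07 and Dcn one of 0.01, and these 2 were the members not below 0; with scaling by library totals both were below 0 as well. Sparc, Mmp2 and most collagens named here were chosen after their values were seen.

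The promoter of Col1a2 is shown as that of a matrix gene low in each knockout library. These are the 250 bases before its RefSeq start (GRCm38.p6, chr6:4505368-4505617, plus strand), with the letters CCAAT in capitals. CBF/NF-Y binds a CCAAT box in type I collagen promoters, and whether it binds this match was not tested. The Runx motif TGTGGT, searched on both strands because the series title names Runx2, is absent from the bases shown. It was found in 5 of 43 promoters of the matrix list (11.6%, 36 genes matched) and in 4614 of 32851 promoters in the table (14.0%). CCAAT was found in 14 of the 43 (32.6%), against 11120 of all (33.8%), and the GC box GGGCGG in 26 of the 43 (60.5%), against 10756 of all (32.7%). A match is a description of these letters and not a binding site, and the base composition of the list was not compared with that of all promoters.
Col1a2: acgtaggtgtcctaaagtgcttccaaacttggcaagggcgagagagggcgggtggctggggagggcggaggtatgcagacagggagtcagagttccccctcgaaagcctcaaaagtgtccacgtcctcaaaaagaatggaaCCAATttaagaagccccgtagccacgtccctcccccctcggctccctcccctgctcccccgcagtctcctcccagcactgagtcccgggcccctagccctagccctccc

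**Figure D4:**
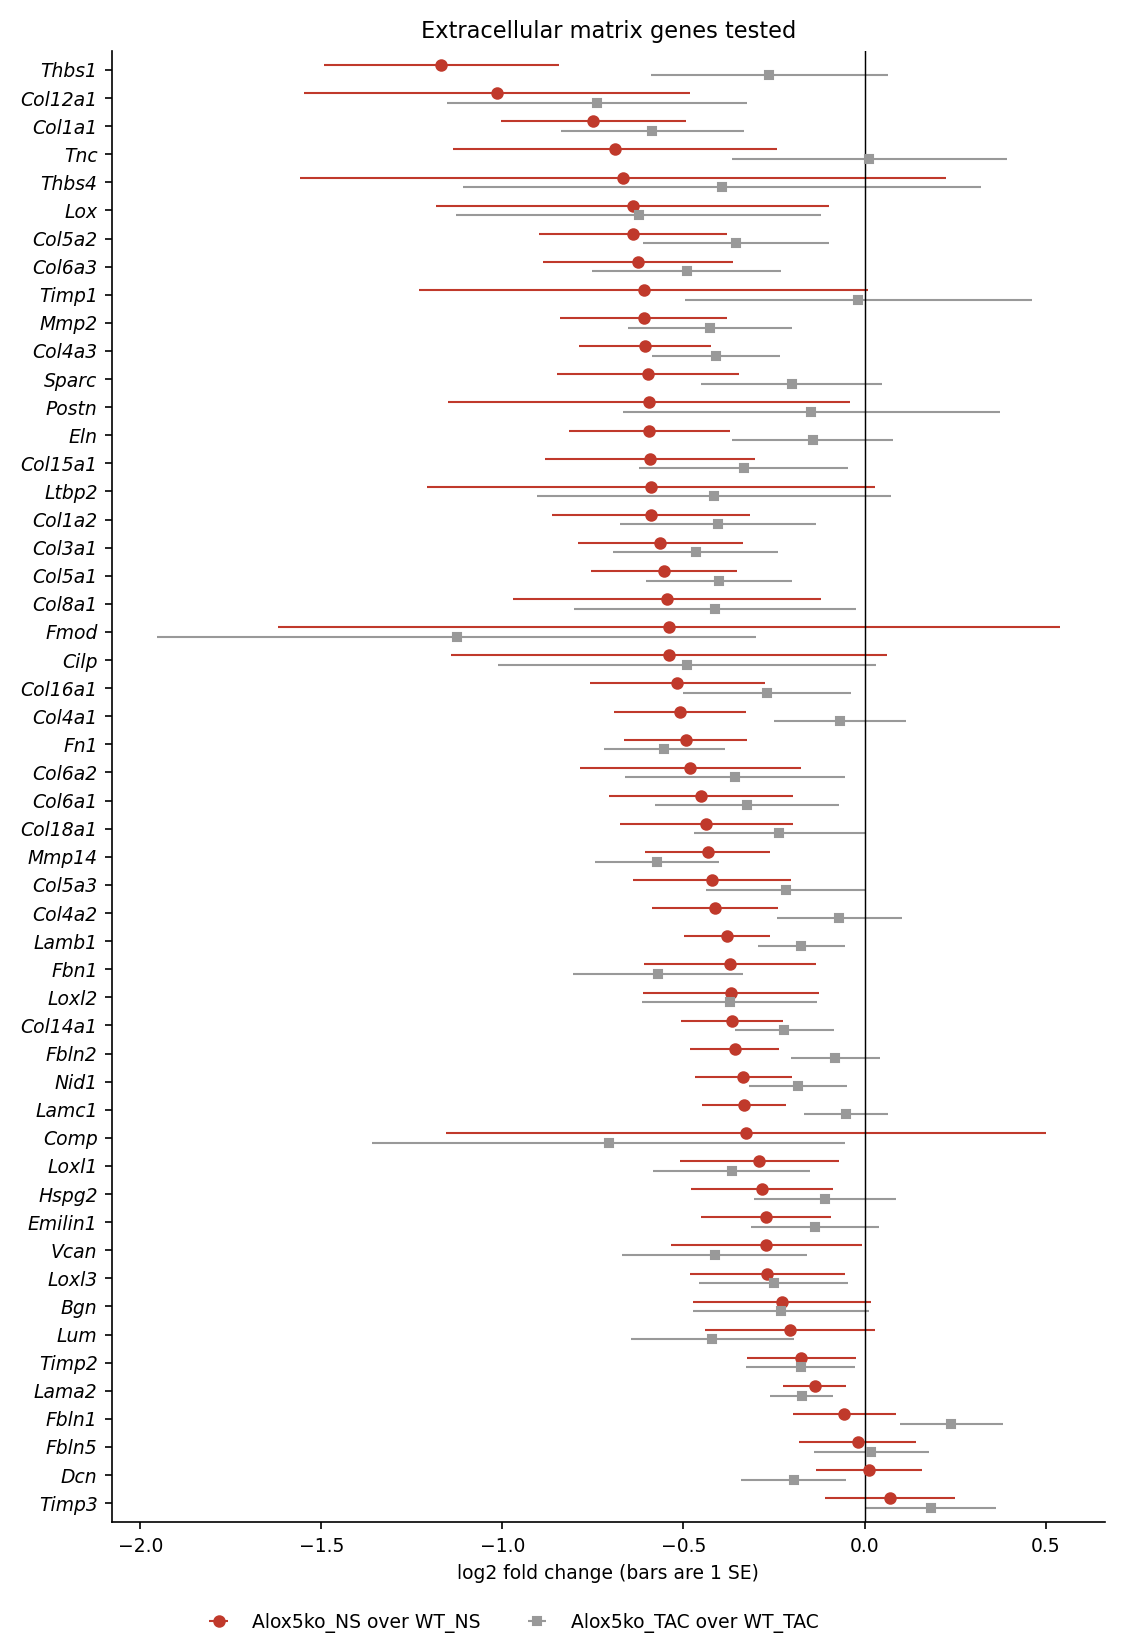
Log2 fold change with 1 SE of each of the 52 extracellular matrix genes tested, without TAC (circles) and under TAC (squares). Without TAC 50 of 52 circles lie left of 0, Timp3 and Dcn being the exceptions; with scaling by library totals these 2 also lie left of 0.

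Under TAC the matrix list had a median of -0.30, with 48 of 52 below 0, and 47 genes were below 0 in both comparisons. At an unadjusted p under 0.05, 5 of the 52 passed under TAC, as did 8.47% of all genes. In 1 of the 52 the TAC libraries of the genotypes did not overlap with the knockout lower, where 6.57% of all genes were so. No matrix gene had an unadjusted p under 0.05 for the difference between the 2 effects. The first WT_TAC library carried the highest summed matrix level of the 12, at 6582 CPM, against 3665 and 4260 CPM in the other WT_TAC libraries.

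Markers of the cells that make and border this matrix differed by unequal amounts. Smooth muscle and pericyte markers were all below 0, 9 of 9 with a median of -0.42, and 6 were apart (66.7%, against 7.46% of all genes apart and lower). Acta2, the actin of smooth muscle and activated fibroblasts, had 66.1, 49.9 and 53.0 CPM in Alox5ko_NS against 109, 103 and 99.3 CPM in WT_NS. All knockout values were well below all wild-type values, with a log2 fold change of -0.88 (adjusted p = 0.436 over 12 libraries and 0.00562 over 6). Tagln, a calponin-related actin-binding protein, had 23.6, 17.9 and 16.7 CPM in Alox5ko_NS against 26.5, 40.3 and 35.7 CPM in WT_NS (log2 fold change -0.82). Myh11, smooth muscle myosin, had 199.7, 159.8 and 109 CPM in Alox5ko_NS against 208, 272 and 268 CPM in WT_NS (log2 fold change -0.67). The lowest Myh11 value was that of the third knockout library, and without it the median of the list was -0.26, against -0.65 without the first.

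Of 11 resting fibroblast markers, 8 were below 0, with a median of -0.06. Col1a1, Col1a2, Lum, Dcn and Fbln1 among them are also members of the matrix list, so the lists are not separate evidence. In 3 the groups were apart and lower (27.3%, against 7.46% of all genes): Col1a1 and Col1a2, both called in the 6-library fit, and Ddr2, a collagen receptor, at -0.16. Lum, a proteoglycan of collagen fibrils, was at -0.21, Pdgfra, the receptor that marks cardiac fibroblasts, at -0.01, Dpt at 0.00 and Tcf21 at 0.09. Their summed levels were 766, 678 and 694 CPM in Alox5ko_NS against 946, 824 and 770 CPM in WT_NS. Activated fibroblast markers were all below 0, 8 of 8 with a median of -0.56, but Acta2 alone was apart (12.5%, against 7.46% of all genes). Postn, Cilp, Comp, Thbs4 and Ltbp2 among them are also members of the matrix list, and Acta2 of the smooth muscle list. Periostin (Postn), secreted by activated fibroblasts, had 15.5, 14.1 and 18.3 CPM in Alox5ko_NS against 30.2, 24.2 and 17.8 CPM in WT_NS, which overlap. Of 10 endothelial markers, 8 were below 0 (49.7% of all genes were) and 4 were apart and lower (40%), with a median of -0.21. Pecam1, a junction protein of all endothelium, had 93.7, 91.1 and 88.1 CPM in Alox5ko_NS against 104, 109 and 99.99 CPM in WT_NS (log2 fold change -0.20). Emcn, a sialomucin of capillaries and veins, had 9.53, 9.31 and 9.95 CPM in Alox5ko_NS against 13.2, 10.6 and 14.1 CPM in WT_NS (log2 fold change -0.40). Of 10 macrophage markers, 6 were below 0 and 3 were apart and lower (30%, against 7.46% of all genes), with a median of -0.14. Under TAC all 10 macrophage markers were above 0, with a median of 0.25. Cardiomyocyte markers had a median of 0.05, which turned to -0.03 with scaling by library totals. The part of cell makeup in the lower matrix levels was not tested.

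Mitochondrially encoded transcripts were higher in the knockout libraries. All 13 protein-coding genes were above 0, with a median of 0.24, and in 11 the groups did not overlap, where 6.19% of all genes were apart and higher. None was called, 11 had an unadjusted p under 0.05, and the median was -0.01 under TAC. mt-Cytb, the cytochrome b of complex III, had 23821, 23119 and 27145 CPM in Alox5ko_NS against 21828, 18999.7 and 21029 CPM in WT_NS. The third knockout library was the highest, and the log2 fold change was 0.26. mt-Co1, a core subunit of complex IV, had 31194, 29464 and 37447 CPM in Alox5ko_NS against 27960.5, 26785 and 27525 CPM in WT_NS (log2 fold change 0.25). Without the third knockout library, the median of the 13 was 0.15. Libraries were selected with oligo(dT), which holds mitochondrial transcripts by their short tails, and the part of selection or RNA quality in these levels was not tested.

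Nuclear genes of fuel use lay on the same side of 0 by smaller steps. Of 46 genes of fatty acid uptake and oxidation, 42 were above 0, with a median of 0.13 (0.05 with scaling by library totals), and 18 (39.1%, against 6.19% of all genes) were apart and higher. Hadhb, a subunit of the mitochondrial trifunctional protein of beta-oxidation, had 246, 241 and 252 CPM in Alox5ko_NS against 220.1, 217 and 216 CPM in WT_NS. Its groups were tight and apart, with a log2 fold change of 0.18. Decr1, the dienoyl-CoA reductase for unsaturated fatty acids, had 133, 121 and 130.4 CPM in Alox5ko_NS against 111, 118 and 114 CPM in WT_NS (log2 fold change 0.16). Acad11, an acyl-CoA dehydrogenase, had 68.9, 65.9 and 71.0 CPM in Alox5ko_NS against 60.5, 62.2 and 54.7 CPM in WT_NS (log2 fold change 0.21). Of the 46, 4 had an unadjusted p under 0.05, all higher, and none was called. Among nuclear subunits and factors of oxidative phosphorylation, 71 of 75 were above 0 and 8 (10.7%) were apart and higher, with a median of 0.09. That median was 0.01 without the third knockout library and 0.01 with scaling by library totals. Ppargc1a, the coactivator that drives mitochondrial gene expression, had 101, 90.9 and 157 CPM in Alox5ko_NS against 75.3, 86.0 and 86.1 CPM in WT_NS. The third knockout library was the highest by far, and the log2 fold change was 0.50 (adjusted p = 0.682).

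Interferon-stimulated genes, which defend cells against viruses, were mostly below 0 without TAC. Of 45 listed, 42 were tested, 40 were below 0 (95.2%), the median was -0.28, and 15 (35.7%, against 7.46% of all genes) were apart with the knockout lower. None was called, and 12 were lower at an unadjusted p under 0.05, as were 3.85% of all genes. Gbp3, a guanylate-binding GTPase, had 26.3, 31.7 and 35.3 CPM in Alox5ko_NS against 42.2, 36.6 and 48.0 CPM in WT_NS, apart by a small margin (log2 fold change -0.44). Bst2, which tethers budding virus particles to the cell, had 5.23, 5.44 and 6.53 CPM in Alox5ko_NS against 7.95, 7.0 and 8.03 CPM in WT_NS (log2 fold change -0.42). The promoters of Gbp3 (GRCm38.p6, chr3:142559794-142560043, plus strand) and Bst2 (GRCm38.p6, chr8:71537473-71537722, minus strand) are shown because both belong to the lower genes and both hold the core of the interferon-stimulated response element, a pair of GAAA copies spaced by NN, in capitals on either strand. In each of the 2 promoters it was matched 2 times, in overlapping copies. It was found in 19 of 37 promoters of the interferon list (51.4%, 32 genes matched) and in 978 of 32851 promoters in the table (2.98%). The list is defined by interferon response, so this share describes the list and not the knockout.
Gbp3: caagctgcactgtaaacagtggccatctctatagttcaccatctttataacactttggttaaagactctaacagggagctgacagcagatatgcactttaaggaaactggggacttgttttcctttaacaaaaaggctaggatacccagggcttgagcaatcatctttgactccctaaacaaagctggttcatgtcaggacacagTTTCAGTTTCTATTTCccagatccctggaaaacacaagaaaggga
Bst2: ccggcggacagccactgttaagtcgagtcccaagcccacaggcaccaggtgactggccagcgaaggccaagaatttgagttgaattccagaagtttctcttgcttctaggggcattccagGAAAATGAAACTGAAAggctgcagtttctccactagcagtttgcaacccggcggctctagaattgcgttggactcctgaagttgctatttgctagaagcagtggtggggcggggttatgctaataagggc

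Antigen presentation genes, many of them interferon-inducible, followed a like course. Of 26 tested, 23 were below 0 (88.5%, against 49.7% of all genes), with a median of -0.19, and 8 were apart and lower (30.8%, against 7.46%). H2-Ab1, a chain of class II major histocompatibility complex, had 49.9, 50.1 and 54.8 CPM in Alox5ko_NS against 70.3, 63.6 and 78.7 CPM in WT_NS. The knockout values sat close together below the wild type, with a log2 fold change of -0.46 (adjusted p = 0.598). Cd74, the invariant chain that escorts class II molecules, had 40.6, 36.9 and 37.5 CPM in Alox5ko_NS against 53.1, 43.8 and 56.6 CPM in WT_NS (log2 fold change -0.42). Tap1, a subunit of the peptide transporter for class I, had 3.14, 3.69 and 3.78 CPM in Alox5ko_NS against 4.63, 4.66 and 6.73 CPM in WT_NS (log2 fold change -0.60). Markers of leukocytes other than macrophages were scarce: of 10 neutrophil markers 2 were tested and Ly6g had 0 counts in all 6 libraries, and Cd3e of T cells had 0, 1 and 2 counts in Alox5ko_NS and 0, 0 and 1 in WT_NS. Macrophage sums were 137, 121 and 167 CPM in Alox5ko_NS against 167, 170.4 and 150.2 CPM in WT_NS, which overlap.

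Whether the genotype difference itself differed between NS and TAC was tested for every gene. No gene was called (0 of 15211, 0%), 822 (5.4%) had an unadjusted p under 0.05, and DESeq2 called 1, Errfi1. The median of the interferon list was -0.28 without TAC and 0.14 under TAC, and 14 of its 42 genes had an unadjusted p under 0.05 for the difference. Bst2 had a log2 fold change of 0.26 under TAC and an unadjusted p of 0.00438 for the difference (adjusted p = 0.626). Genes of the unfolded protein and heat shock response had medians of -0.06 and 0.23, and 17 of 47 had an unadjusted p under 0.05 for the difference. Calr, a calcium-binding chaperone of the endoplasmic reticulum, had 653, 583 and 631 CPM in Alox5ko_NS against 768, 743 and 668 CPM in WT_NS. Under TAC it had 727, 729 and 744 CPM in Alox5ko_TAC and 649.6, 660.1 and 666 CPM in WT_TAC, so the knockout was lower in all libraries without TAC and higher in all under TAC. Its fold changes were -0.22 and 0.16, with an adjusted p of 0.599 for the difference. Hyou1, Pdia4 and Creld2, of the same compartment, had fold changes of -0.31, -0.30 and -0.31 without TAC, and of 0.23, 0.21 and 0.29 under TAC.

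Errfi1, a feedback inhibitor of ErbB receptors, had 18.9, 20.3 and 15.9 CPM in Alox5ko_NS against 33.8, 41.9 and 28.5 CPM in WT_NS. It was called in the 6-library fit (log2 fold change -0.92, adjusted p = 0.0336) and not over 12 libraries (adjusted p = 0.253). Under TAC, its fold change was 0.29, and edgeR gave the difference of -1.20 an adjusted p of 0.523. Hist2h2aa1, AC125099.1, Rell1 and Camk2b were among the genes with the smallest p-values of the difference, each with an adjusted p of 0.482. AC125099.1 lies inside Hist2h2aa1 on the opposite strand, and reads of these 2 cannot be told apart. Their counts in Alox5ko_TAC were 62, 64 and 75 for AC125099.1 and 65, 67 and 76 for Hist2h2aa1. Rell1, a member of the RELT family, had 9.79, 10.2 and 9.68 CPM in Alox5ko_NS against 13.6, 14.9 and 13.8 CPM in WT_NS. Its groups were tight, with a log2 fold change of -0.52 without TAC (adjusted p = 0.132) and of 0.19 under TAC. Hist2h2aa1, a histone gene with a near-identical copy among which reads may be split, differed little without TAC (0.19) and had a fold change of 2.60 under TAC. Among 23 clock genes, 6 had an unadjusted p under 0.05 for the difference. Cry1, a repressor of the clock, had 9.42, 7.90 and 7.51 CPM in Alox5ko_NS against 10.4, 11.8 and 10.4 CPM in WT_NS (log2 fold change -0.40, and 0.30 under TAC). Times of tissue collection are not given in the labels, and their part was not tested.

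**Figure D5:**
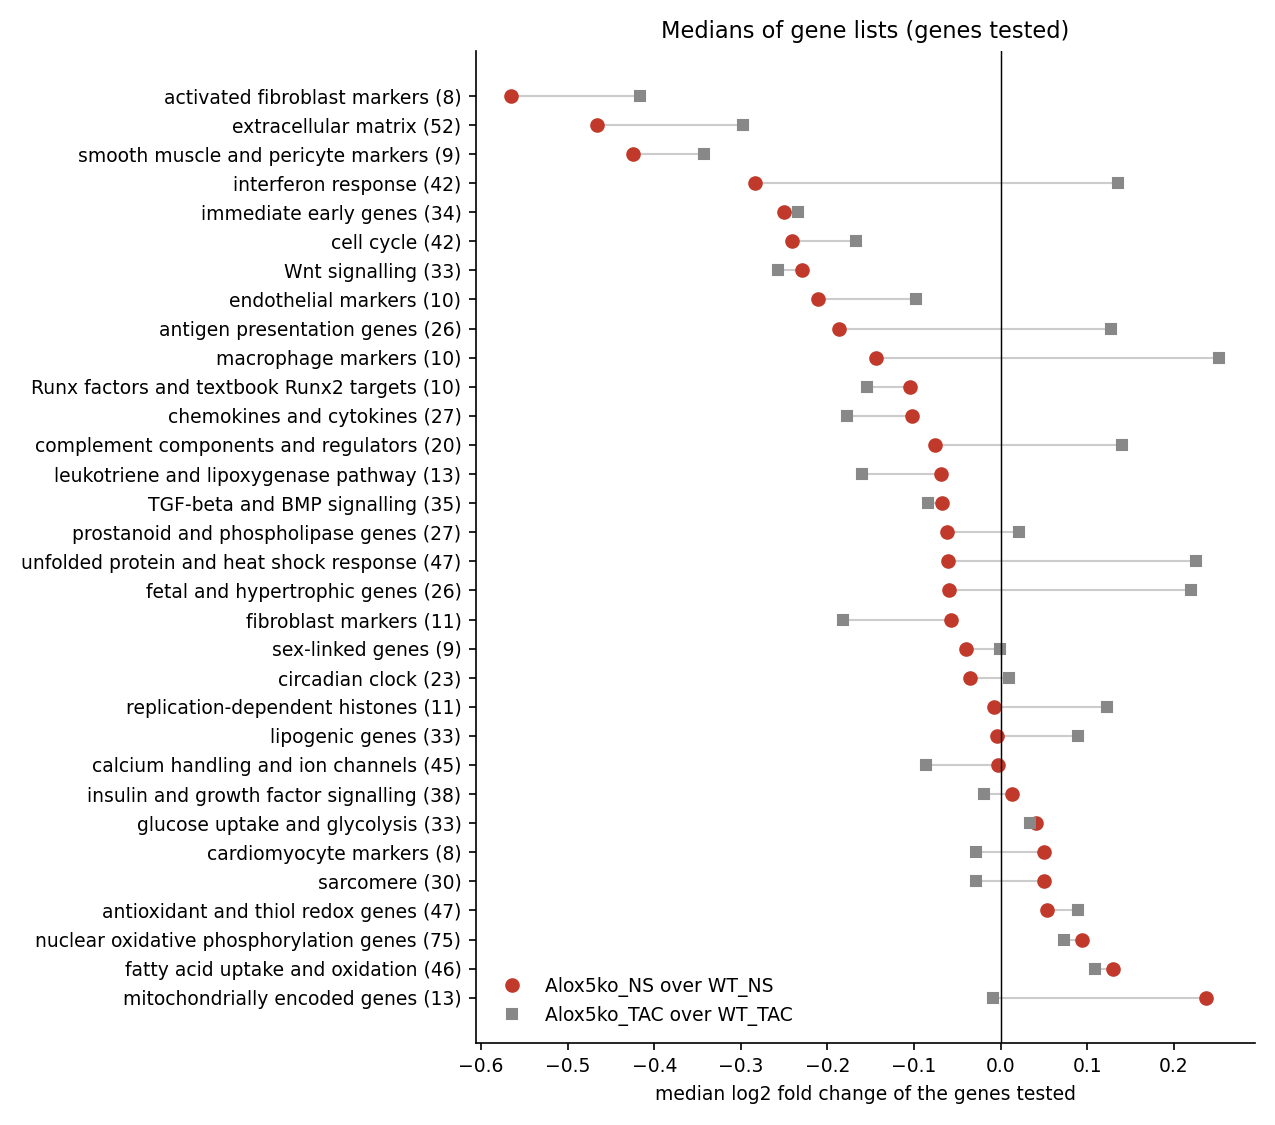
Median log2 fold change of the tested genes of each list (number of genes in brackets), without TAC (circles) and under TAC (squares), ordered by the value without TAC, for lists with 8 or more genes tested. Of the lists plotted, activated fibroblast and matrix lists, which share genes, lie at the low end and mitochondrially encoded genes at the high end. With scaling by library totals, the medians of the glucose, insulin, cardiomyocyte, sarcomere and antioxidant lists turn negative. With DESeq2 size factors those of the lipogenic and calcium lists turn positive.

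Runx2, the transcription factor named in the series title, was near the limit of detection, and Runx1 and Egr1 were not called. Runx2 was not a member: it had 12, 8 and 3 counts in Alox5ko_NS and 4, 2 and 4 in WT_NS, and 3, 8 and 3 in Alox5ko_TAC and 12, 6 and 6 in WT_TAC. With no filter on low counts Runx2 was not among the 116 genes called, and counts this low could hide a difference. Runx1, the related factor of blood and injured muscle, had 0.710, 0.745 and 1.29 CPM in Alox5ko_NS against 1.77, 1.55 and 1.75 CPM in WT_NS. The groups were apart, with a log2 fold change of -0.90 (SE 0.361, adjusted p = 0.714, edgeR). Of 22 genes listed as Runx factors and textbook Runx2 targets, 10 were tested, 7 below 0 with a median of -0.11, and none was called. Egr1, an early response factor, had 9.94, 10.8 and 20.8 CPM in Alox5ko_NS against 11.8, 24.4 and 9.86 CPM in WT_NS. The ranges overlapped (log2 fold change -0.16, SE 0.667, adjusted p = 0.982).

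Early response genes, which rise within minutes of stress, were below 0 in 29 of 34, with a median of -0.25, and 5 were apart and lower (14.7%, against 7.46% of all genes). Jun, a subunit of AP-1, had 37.0, 43.2 and 43.9 CPM in Alox5ko_NS against 55.8, 57.5 and 46.2 CPM in WT_NS (log2 fold change -0.36). Fosb, its partner, had 1.79, 5.55 and 4.0 CPM in Alox5ko_NS against 6.63, 24.3 and 6.64 CPM in WT_NS. The second wild-type library was the highest by far, and the log2 fold change of -1.73 had an SE of 0.831. The same wild-type library was high in fetal genes of hypertrophy: Nppb, the B-type natriuretic peptide, had 101, 100.4 and 123 CPM in Alox5ko_NS against 89.8, 248 and 78.8 CPM in WT_NS. Without that library the log2 fold change of Nppb was 0.36, against -0.36 with it. Acta1, skeletal actin, had 176, 153 and 169.5 CPM in Alox5ko_NS against 102, 312 and 117 CPM in WT_NS, with fold changes of 0.60 and -0.09. The 26 fetal and hypertrophic genes had a median of -0.06, and of 0.02 without the second wild-type library. None was called over 12 libraries, and 1, Tpm2, was called lower in the 6-library fit. Tpm2, a tropomyosin, had 63.3, 51.8 and 61.1 CPM in Alox5ko_NS against 80.9, 90.5 and 82.5 CPM in WT_NS (log2 fold change -0.53, 6-library adjusted p = 0.0474).

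Cell cycle genes were below 0 in 35 of 42, with a median of -0.24, and 9 were apart and lower (21.4%, against 7.46% of all genes). Mcm6, a subunit of the replicative helicase, had 2.88, 2.98 and 3.69 CPM in Alox5ko_NS against 4.41, 4.58 and 4.66 CPM in WT_NS (log2 fold change -0.52, adjusted p = 0.598). Their summed level was 291, 308 and 298 CPM in Alox5ko_NS against 344, 346 and 346 CPM in WT_NS, with no overlap. Wnt signalling genes were below 0 in 29 of 33, with a median of -0.23, and Wnt5b was the 1 called. Of the 33, 8 were apart and lower (24.2%, against 7.46% of all genes) and 0 apart and higher. Ror1, a receptor of the Wnt5 ligands, had 3.59, 5.18 and 3.29 CPM in Alox5ko_NS against 5.18, 6.69 and 6.55 CPM in WT_NS, which meet at the edge (log2 fold change -0.61, adjusted p = 0.591). Of 35 genes of TGF-beta and BMP signalling, 10 were apart and lower (28.6%, against 7.46% of all genes) and 1 apart and higher, and the median was -0.07. Among them, Tgfbr2, the type II receptor of TGF-beta, had 20.4, 19.9 and 21.2 CPM in Alox5ko_NS against 23.9, 27 and 24.8 CPM in WT_NS (log2 fold change -0.30).

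The remaining lists had medians near that of all genes, but in some the groups were apart more often. Of glycolytic genes, 18.2% were apart and higher, against 6.19% of all genes, and 0% apart and lower. Among complement genes, 25% were apart and lower, against 7.46% of all genes, and 0% apart and higher. Of insulin and growth factor genes, 15.8% were apart and lower and 13.2% apart and higher. Sarcomere genes, 30 in all, had a median of 0.05, glycolytic genes 0.04, antioxidant genes 0.05 and insulin and growth factor genes 0.01, and with scaling by library totals these 4 medians were negative. The medians of lipogenic and calcium handling genes were -0.00 each, and positive with DESeq2 size factors. Nnt was the 1 called among 47 antioxidant genes, Ide among 38 insulin and growth factor genes and Itpr1 among 45 calcium handling genes. Scn4b, a beta subunit of the cardiac sodium channel, had 19.4, 15.9 and 17.4 CPM in Alox5ko_NS against 11.7, 13.5 and 11 CPM in WT_NS. Its groups were apart, with a log2 fold change of 0.54 both without and under TAC (adjusted p = 0.432 and 0.284). Fasn, the fatty acid synthase, had 7.73, 8.79 and 7.11 CPM in Alox5ko_NS against 10.8, 10.6 and 10.8 CPM in WT_NS (log2 fold change -0.44, adjusted p = 0.444). Complement genes had a median of -0.08, chemokines and cytokines -0.10, and replication-dependent histones -0.01. Gimap6, a GTPase of lymphocytes and endothelium, was called in the 6-library fit, with 32.9, 36.4 and 30.2 CPM in Alox5ko_NS against 47.4, 47.9 and 46.1 CPM in WT_NS (log2 fold change -0.51, adjusted p = 0.0474).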

How the data were processed

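Polyadenylated RNA of mouse left ventricle was selected with oligo(dT), made into directional libraries and read as pairs of 150 bases on a NovaSeq, per the labels' protocols. HISAT2, DESeq2 and the builds mm10 and GRCh38 are named, with no role or version, in the submitters' processing notes; the counting program, its strand setting and the annotation release are not given in the sources used here. The authors deposited raw counts per gene symbol with exon coordinates and gene length, and RPKM values, which were recomputed from the counts, that length and the library totals within 0.1%; RPKM were not tested.

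Groups came from the sample titles. Genes with 10 or more counts in at least 3 of the 6 NS libraries were kept and scaled by the trimmed mean of M-values. edgeR 4.0.16 (R 4.3.3) fitted a robust quasi-likelihood model with 1 coefficient per group to all 12 libraries, with Benjamini-Hochberg adjustment over 15211 genes and a call at an adjusted p under 0.05. "Apart" and "not overlapping" mean that all 3 libraries of 1 genotype lay above all 3 of the other; with 3 libraries each, the smallest two-sided p of an exact permutation test is 0.1, so none was used for single genes. On simulated counts for the 15211 genes with the same design, 50 genes were changed at each fold. Of these, 54% at a fold of 1.5, 76% at 2 and 94% at 3 and at 4 were recovered, with 10 false calls. In the real comparison 3 of the 99 genes with an absolute log2 fold change of at least 1 were called. The recovered shares thus hold for the simulated setting only. Positions and gene identifiers are from GENCODE M21 (GRCm38), promoters from RefSeq.

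Alternatives were other scalings, filters, DESeq2 1.42.0, non-robust estimation, the replicate number as a block, thinning to the smallest library, the 6 libraries of the contrast alone and each library left out. The members and the gene lists were chosen with earlier results of these data known. Genes named were Alox5, Runx2, Egr1, the called genes, genes called in both genotype comparisons or within 10 Mb of Alox5, from each list up to 4 members by smallest adjusted p, and the 5 genes whose NS and TAC effects differed with the smallest p; 1 gene under this rule is not reported here. Gm44040, Gimap6, Apold1, Nppb, Acta1, Fam21, Atp6v1e1, Apobec1, Btaf1, Fgfbp3, Fbxl14, the markers of other cell types, and the matrix genes other than those that the rule names were chosen after their values were seen.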

Additional observations from a re-analysis of the deposited data

How the results depend on the processing

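Of 2013 values of single genes under the alternatives, 1916 kept direction and side of the threshold, 47 were called where they had not been, 38 lost their call and 12 changed sign; of 941 list medians, 910 moved by less than 1 SD. The 6 genes called without TAC became 116 with no filter on low counts (55 higher, 61 lower), 24 with DESeq2 (12 and 12), 3 without robust estimation and 3 after thinning (1 lower in each), and 18 in the 6 NS libraries (16 lower). With single libraries left out they were 2 to 7, of which 1 to 3 were higher and 1 to 6 lower. The 10 genes called under TAC became 252 with no filter, 17 with edgeR's own filter, 54 with DESeq2, 6 after thinning, 30 in the 6 TAC libraries and 4 to 23 with libraries left out. The 4 genes called in both became 25 with no filter, 7 with DESeq2, 2 without robust estimation, with the replicate block and after thinning, and 1 to 3 with libraries left out. Genes called for the difference between NS and TAC were 83 with no filter, 1 with DESeq2 and 0 to 1 with libraries left out. The 18 of the 6-library fit became 201 with no filter, 9 with 30 counts in 3 libraries, 57 with DESeq2, 5 without robust estimation and 2 to 34 with libraries left out. Its 8 matrix genes became 29, 3, 15 and 1 under those settings, 4 with the block and 0 to 11 with libraries left out; matrix genes below 0 stayed between 48 and 52. Alox5 ranged from -3.59 to -3.27. Signs changed for 6 genes, whose values with libraries left out ran from -0.57 to 0.35 for Egr1, -0.029 to 0.65 for Hist2h2aa1 (-0.0068 thinned), -0.65 to 0.36 for Nppb, -0.37 to 0.60 for Acta1, -0.035 to 0.18 for Timp3 (-0.011 with library totals) and -0.040 to 0.095 for Dcn (-0.070 with library totals). The causes were not tested.

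Without TAC, same-numbered libraries of the genotypes had deviations correlated at 0.035, 0.018 and -0.043, and differently numbered ones at -0.073 to 0.042. Under TAC, same-numbered libraries of the genotypes were at 0.082, 0.048 and 0.0043. Same-numbered Alox5ko_NS and Alox5ko_TAC libraries were at -0.094, 0.087 and 0.063. For WT_NS with WT_TAC the values were 0.078, 0.091 and 0.049, and differently numbered ones were at -0.103 to 0.020. These values do not settle whether the numbers pair libraries. With the replicate block 6 genes were called; Wnt5b (adjusted p = 0.0572) and Ret (0.0765) were not, and Errfi1 and Apold1 were. Depth limits genes near the filter: of the 15211, those at about 10 counts cannot show small differences. Runx2 fell below the filter, so the main fit did not test it, and it was not called with no filter.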

Other observations

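Lists for cells that a piece of ventricle could also hold gave these values. Erythroid transcripts summed to 240, 196 and 348 CPM in Alox5ko_NS against 262, 200 and 154 CPM in WT_NS, with a median log2 fold change of 0.40 over 6 genes, and of 0.06 without the third Alox5ko_NS library. Atrial markers summed to 183, 209.9 and 307 CPM in Alox5ko_NS against 379, 266 and 195 CPM in WT_NS, and none of the 7 tested was apart. Cd4, a T cell coreceptor whose gene lies at 8455 kb from Alox5, had 0.560, 0.633 and 0.489 CPM in Alox5ko_NS against 1.18, 1.12 and 1.08 CPM in WT_NS (log2 fold change -0.99, and -0.93 under TAC), while other T cell markers were too low to test. Xist, the RNA that silences the X chromosome, had 0.112, 0.224 and 0.133 CPM in Alox5ko_NS against 0.500, 0.561 and 0.538 CPM in WT_NS. These are 3, 6 and 3 counts against 11, 13 and 12, a level near the filter. Under TAC the counts were 15, 6 and 14 in Alox5ko_TAC and 7, 10 and 6 in WT_TAC, which overlap. Ddx3y, a Y-linked helicase, had 41.8, 44.0 and 47.1 CPM in Alox5ko_NS against 38.9, 42.4 and 36.5 CPM in WT_NS. Apold1, an early response gene of endothelium, had 5.31, 7.64 and 6.66 CPM in Alox5ko_NS against 16.4, 17.7 and 10.1 CPM in WT_NS (log2 fold change -1.17, adjusted p = 0.373, edgeR), and was chosen after its values were seen.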
